A study of Mus musculus with 6 samples.

Results

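Described here are 38 genes of a pair of DNA damage pathways, nucleotide excision repair and translesion synthesis, taken by gene symbol from a table of 32544 genes. All 38 symbols were found, and all 38 passed the filter on low values (at least 1 CPM, a count per 1000000 reads of a library, in no fewer than 3 libraries). The study measured messenger RNA of hand-dissected S2 and S3 segments of the kidney proximal tubule, the later parts of the tubule that reabsorbs most of the filtrate. The mice were of the C57Bl/6 strain and received aristolochic acid I (AA, 3 libraries) or DMSO, the solvent control (3 libraries), 24 h before the kidneys were taken. The design text calls all of these animals control mice and states 3 mg/kg as a single dose for either agent, and 5 to 10 tubules were pooled per kidney. Age and sex are not described here. Nothing in the labels ties libraries to individual animals, so p-values measure only the spread between these libraries, which may be technical.

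The nephrotoxin aristolochic acid I comes from plants, is activated by reduction inside cells and binds purine bases of DNA as a bulky adduct. Nucleotide excision repair removes such adducts: the lesion is recognised either anywhere in the genome (XPC and the DDB complex) or at a stalled RNA polymerase (CSA, CSB and UVSSA). The complex TFIIH then opens the helix, XPA and RPA hold it open, XPG and XPF-ERCC1 cut on either side, and the gap is filled and sealed. Aristolactam adducts on adenine are known as poor substrates of recognition in the whole genome and are removed mainly where genes are transcribed. Translesion synthesis is a tolerance pathway, in which specialised polymerases, recruited through RAD18 and REV1, copy past a lesion that is still in place.

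The highest fold changes among the 38 genes were those of Ercc5, which encodes the repair nuclease XPG, and of Polk, which encodes the translesion polymerase kappa. Stretches upstream of their annotated starts are printed beside those of Ercc4 and Polh, a second nuclease and a second translesion polymerase that did not pass the test. The letters come from RefSeq promoter windows of GRCm38.p6, which held 31 of the 38 genes (not Ccnh, Ddb2, Ercc3, Poli, Rev3l, Rfc2 and Xpc). From the 250 bases before each start, the longest stretch outside every annotated exon is shown, 5′ to 3′ on the strand of the gene. Capitals mark matches to the motifs searched on both strands.
Ercc5, chr1:44147494-44147743, plus strand: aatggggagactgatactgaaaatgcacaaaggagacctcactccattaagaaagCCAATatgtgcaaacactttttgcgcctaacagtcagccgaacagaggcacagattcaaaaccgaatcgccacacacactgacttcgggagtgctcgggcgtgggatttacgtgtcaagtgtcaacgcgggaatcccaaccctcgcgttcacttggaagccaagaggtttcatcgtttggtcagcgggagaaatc
Ercc4, chr16:13109486-13109683, plus strand: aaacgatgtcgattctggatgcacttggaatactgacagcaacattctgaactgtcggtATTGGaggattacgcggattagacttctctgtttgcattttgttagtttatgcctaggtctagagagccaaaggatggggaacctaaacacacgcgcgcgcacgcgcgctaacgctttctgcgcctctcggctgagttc
Polk, internal start, chr13:96519188-96519437, minus strand: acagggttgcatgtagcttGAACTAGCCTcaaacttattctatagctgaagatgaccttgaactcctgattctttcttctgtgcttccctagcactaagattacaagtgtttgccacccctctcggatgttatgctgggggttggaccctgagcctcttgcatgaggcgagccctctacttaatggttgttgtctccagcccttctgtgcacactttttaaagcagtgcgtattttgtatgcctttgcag
Polk, first start, chr13:96542645-96542734, minus strand: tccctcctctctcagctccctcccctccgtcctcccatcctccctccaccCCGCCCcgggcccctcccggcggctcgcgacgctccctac
Polh, chr17:46202646-46202781, minus strand: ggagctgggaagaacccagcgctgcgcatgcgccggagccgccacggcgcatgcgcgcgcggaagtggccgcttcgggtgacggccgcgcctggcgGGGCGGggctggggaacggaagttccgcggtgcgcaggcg

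The motifs searched were the p53 decamer, the GC box (GGGCGG), the CCAAT box (CCAAT), the AP-1 site (TGANTCA), the cyclic AMP response element (TGACGTCA) and the antioxidant response element (TGACNNNGC). Each printed stretch held 1 match, so that no matches overlapped. Ercc5 and Ercc4 each held a CCAAT box, the one in Ercc4 on the reverse strand. The first start of Polk and that of Polh each held a GC box, the one of Polk on the reverse strand. These windows also hold exon bases of neighbours on the other strand, 122 of Col4a3bp for Polk and 110 of Xpo5 for Polh. The printed Polk stretch, 66 to 155 bases before the first start, lies past the start of Col4a3bp, which is 38 bases from Polk. The p53 decamer was matched in the window of the internal start of Polk. Such a match stood in 5.71% of the 35 windows of these genes (Polk and Cetn2), in 6.17% of the 13305 windows of tested genes and in 7.13% of all 32851 windows. In the same order the shares were 65.7%, 55.0% and 32.7% for the GC box and 40.0%, 34.8% and 33.9% for the CCAAT box. They were 8.57%, 4.77% and 6.75% for the AP-1 site, 11.4%, 11.5% and 10.2% for the antioxidant response element, and 0%, 2.39% and 1.55% for the cyclic AMP response element. A match is a description of letters, not a site of binding.

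Library depth ran from 13304877 to 31136251 reads, and log2 levels correlated at 0.970 to 0.980 within groups and 0.918 to 0.950 between them. As a check of the labels, Cdkn1a, the gene of the cell cycle inhibitor p21, read 0.867 to 3.26 CPM in DMSO and 192 to 279 CPM in AA. DMSO replicates 1 and 2 stood apart from the other 4 libraries by more than 2 on the log2 scale in 44 genes, of which 0 belonged to the 38. A fit with a term for these library sets, in which the AA effect rests on DMSO replicate 3 as the one solvent library in the set of the AA libraries, is therefore given beside the results. Markers of the labelled tissue (9 genes, among them Lrp2, Cubn and Slc34a1) summed to 14513 to 19586 CPM in DMSO and 7826 to 9604 CPM in AA, with 0 higher and 4 lower. The 4 were Lrp2, Cubn, Acy3 and Slc5a10. Lrp2 alone had means of 7282 CPM in DMSO and 2704 CPM in AA. Log2 fold changes of the other 5, which did not pass, ran from -0.62 (Slc34a1) to 0.26 (Slc22a8), so the markers did not move as 1. Summed markers of other cells, 4 genes each, were 180 to 473 CPM in DMSO and 303 to 1264 CPM in AA for thick limb and distal tubule (1 higher), 14.3 to 28.2 CPM in DMSO and 37.1 to 79.9 CPM in AA for collecting duct (1 higher) and 76.5 to 119 CPM in DMSO and 118 to 151 CPM in AA for endothelium (2 higher). They were 37.8 to 65.9 CPM in DMSO and 55.4 to 93.3 CPM in AA for podocytes (0 higher), 10.1 to 13.7 CPM in DMSO and 39.9 to 54.2 CPM in AA for leukocytes (2 of 3 tested higher) and 52.5 to 73.7 CPM in DMSO and 96.4 to 109 CPM in AA for fibroblasts and mural cells (2 higher), and 0 of these markers were lower. Most of the rise of the leukocyte sum lay in Cd68, with means of 0.933 CPM in DMSO and 28.4 CPM in AA. Lyz2 also passed, at means of 1.77 and 5.78 CPM, whereas Ptprc did not, at 8.97 and 11.4 CPM. The T cell marker Cd3e was at 0 in DMSO replicate 1. Most of the collecting duct rise lay in Aqp2, with means of 8.29 CPM in DMSO and 43.4 CPM in AA. Aqp3 had means of 10.4 and 9.16 CPM. Scnn1g and Atp6v1g3 had log2 fold changes of 0.80 and 0.65 and did not pass. The thick limb and distal tubule sum lay mostly in Umod and Slc12a1, which did not pass. Umod read 270, 293 and 93.4 CPM in DMSO and 159, 807 and 411 CPM in AA, for replicates 1, 2 and 3. The gene of that list that passed was Cldn19, with means of 4.40 CPM in DMSO and 17.2 CPM in AA. Of 5 markers of proliferating cells, 4 were tested and 0 passed. In bulk RNA, fewer cells of a type and less RNA of a single marker gene per cell cannot be told apart, and the part of these cells in the results below was not tested.

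Of the 38 genes, 7 rose and 1 fell in AA, and 30 did not pass (limma's moderated test, Benjamini-Hochberg adjusted p under 0.05 over all 14311 tested genes). That is 21.1% of the 38, where 30.9% of all tested genes passed. The share that rose was 18.4% against 22.3% of all tested genes, and the share that fell was 2.63% against 8.66%. The median log2 fold change of AA over DMSO was 0.21, beside 0.21 over all tested genes, and 19 of the 38 lay above that median. The genes that rose were Ercc5, Polk, Rfc2, Rev1, Ercc3, Gtf2h1 and Uvssa, and the gene that fell was Gtf2h2. AA values lay above every DMSO value in 11 of the 38 genes and below in 2, where 33.4% and 13.0% of all tested genes did so.

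The calls depended on how the libraries were scaled. Equalising the library medians lowers the log2 fold change of every gene by the same 0.26. With library medians equalised, 4 of the 38 rose (Ercc5, Polk, Rev1 and Rfc2), where 11.2% of all tested genes rose, and 2 fell (Gtf2h2 and Lig3), where 16.9% fell. The share of calls over all genes that were higher was 72.0% as deposited, 39.9% with medians equalised and 46.7% after quantile normalization. In the fit with library sets, 2 of the 38 rose, Ercc5 and Polk, and 0 fell, beside 7.39% and 2.96% of all tested genes. With the replicate number as a block 6 rose and 1 fell (all tested genes 19.3% and 7.3%). Leaving out 1 library gave 5 risers at the lowest, without DMSO replicate 1 (15.7% of all tested genes) or AA replicate 3 (14.9%), and 8 at the highest, without AA replicate 1 (19.1%).

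**Figure D1:**
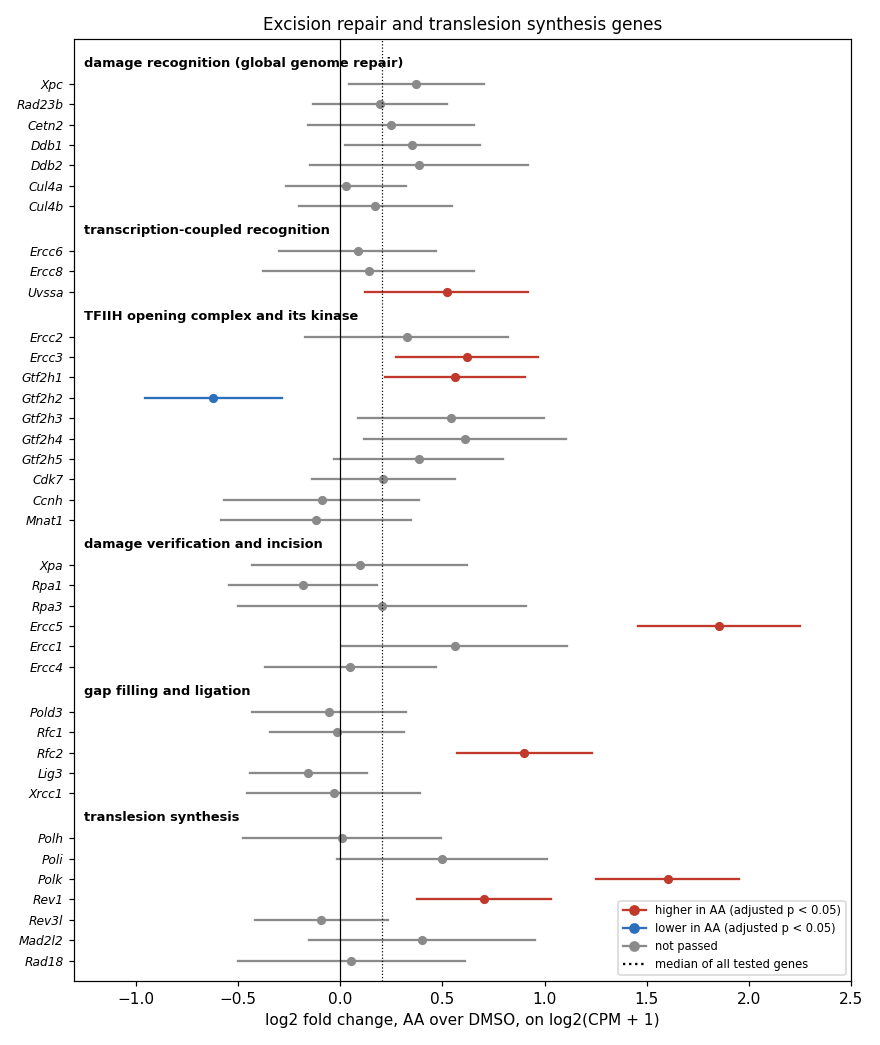
Log2 fold change of AA over DMSO (x axis, on the log2(CPM + 1) scale) for each of the 38 genes (y axis), grouped by role; points are limma estimates from 3 libraries per group and bars are their 95% confidence intervals. Ercc5 (1.85) and Polk (1.60) stand to the right of all other genes, Gtf2h2 (-0.62) is the one gene that passed on the left, and most other genes scatter around the dotted median of all tested genes (0.21).

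Among the 7 genes of damage recognition in the whole genome, 0 passed, where 30.9% of all tested genes did. Xpc encodes the protein that first binds a distorted helix, and its levels were 49.0, 67.2 and 55.1 CPM in DMSO and 78.5, 69.1 and 73.6 CPM in AA, here and below in the order of replicates 1, 2 and 3. All AA libraries were above all DMSO libraries, with DMSO replicate 2 close to the lowest AA library (log2 fold change 0.37, SE 0.15, adjusted p = 0.0808). Xpc passed in 1 of 16 alternative settings, without DMSO replicate 2 (0.49, adjusted p = 0.03). Its log2 fold change was 0.27 without DMSO replicate 1 (adjusted p = 0.231) and 0.11 with library medians equalised (0.592). Ddb2 encodes the lesion-binding subunit of the UV-DDB complex, a p53 target in human cells but known to lack that response in the mouse. Its values were 3.89, 4.95 and 5.14 CPM in DMSO and 4.96, 6.96 and 7.40 CPM in AA. The groups overlapped, with AA replicate 1 inside the DMSO range (log2 fold change 0.39, SE 0.24, adjusted p = 0.244). Ddb1, the adaptor that joins DDB2 to the CUL4 ubiquitin ligase, had the highest level per length of the 38 genes. Its means in DMSO and AA were 312 ± 42.7 and 397 ± 41.1 CPM (SD, n = 3 per group, log2 fold change 0.35, adjusted p = 0.0949), and it passed in 1 of 16 alternative settings, quantile normalization (0.45, adjusted p = 0.0398), while it was at 0.093 with library medians equalised (0.701). The XPC partners Rad23b and Cetn2 and the ligase scaffolds Cul4a and Cul4b had log2 fold changes from 0.029 to 0.25, and 0 of the 4 passed.

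Of the 3 genes of transcription-coupled recognition, 1 rose, where 22.3% of all tested genes did. Uvssa encodes the protein that brings TFIIH to a stalled polymerase, and it read 39.5, 51.8 and 57.5 CPM in DMSO and 73.1, 58.3 and 83.2 CPM in AA. The groups did not overlap, but AA replicate 2 exceeded DMSO replicate 3 by less than 1 CPM (log2 fold change 0.52, SE 0.18, adjusted p = 0.0485). It passed in 4 of 16 alternative settings, with adjusted p from 0.031 to 0.481. Ercc6 encodes CSB, the motor protein that first senses the stalled polymerase. Its levels were 26.5, 33.1 and 39.6 CPM in DMSO and 31.9, 36.7 and 35.9 CPM in AA, with every AA value inside the DMSO range (log2 fold change 0.087, SE 0.17, adjusted p = 0.734). Ercc8, the gene of CSA, the substrate receptor of the ligase at this step, averaged 7.01 ± 1.04 and 7.89 ± 1.72 CPM in DMSO and AA (SD, n = 3 per group, adjusted p = 0.682). The 95% intervals allowed at most a 1.39-fold rise of CPM + 1 for Ercc6 and a 1.58-fold rise for Ercc8. For a gene as low as Ercc8 the bound on CPM itself is looser.

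Of the 10 genes of TFIIH, the complex that opens the helix in repair and at promoters, 2 rose, 1 fell and 7 did not pass. Those shares, 20% higher and 10% lower, were near the 22.3% and 8.66% of all tested genes. Ercc3 encodes XPB, the translocase of the complex, and it read 23.4, 28.7 and 23.3 CPM in DMSO and 41.5, 35.9 and 40.1 CPM in AA. Every AA library was above every DMSO library (log2 fold change 0.62, SE 0.16, adjusted p = 0.0134). Gtf2h1 encodes the p62 subunit, which XPC and UVSSA bind. Its levels were 39.1, 36.3 and 49.3 CPM in DMSO and 56.4, 61.3 and 66.6 CPM in AA, again without overlap (log2 fold change 0.56, SE 0.16, adjusted p = 0.02). Neither gene passed with library medians equalised (adjusted p = 0.104 for Ercc3 and 0.17 for Gtf2h1), after quantile normalization (0.0708 and 0.0851) or in the fit with library sets (0.0735 and 0.374). Gtf2h1 also did not pass without AA replicate 2 (0.0624), AA replicate 3 (0.0784), DMSO replicate 1 (0.0566) or DMSO replicate 2 (0.0544).

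Gtf2h2, which encodes the p44 subunit that stimulates the XPD helicase, moved the other way. It read 36.4, 33.7 and 33.5 CPM in DMSO and 21.4, 21.1 and 23.9 CPM in AA. Each group spanned less than 3 CPM and the groups did not overlap (log2 fold change -0.62, SE 0.15, adjusted p = 0.0117). It was the one of the 38 genes that passed as lower, and it did so in 15 of 16 alternative settings, the exception being the fit with library sets (log2 fold change -0.58, adjusted p = 0.138). The gene lies at chr13:100460218-100492579 on the minus strand (mm10). Its level relative to Gtf2h1 in the same library, a ratio that no library-wide scale factor can change, was 0.679 to 0.930 in DMSO and 0.344 to 0.379 in AA. Relative to Ercc3 it was 1.17 to 1.55 in DMSO and 0.516 to 0.597 in AA. All within-library ratios given here are of pairs chosen after their values were seen, so they carry no test.

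Other core subunits of TFIIH had positive values that missed the threshold. Gtf2h4, the gene of the p52 subunit that holds XPB, had means of 6.58 ± 0.998 and 10.6 ± 1.77 CPM in DMSO and AA (log2 fold change 0.61, SE 0.22, adjusted p = 0.0596). Gtf2h3, the gene of p34, which pairs with p44, had means of 13.8 ± 1.84 and 20.7 ± 4.25 CPM (log2 fold change 0.54, SE 0.21, adjusted p = 0.0686). Gtf2h5, the gene of a small stabilising subunit, was at 0.38 on the log2 scale and Ercc2, the gene of the XPD helicase, at 0.33. The kinase module, which TFIIH needs in transcription, had log2 fold changes of 0.21 for Cdk7, -0.090 for Ccnh and -0.12 for Mnat1, and 0 of the 3 passed.

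**Figure D2:**
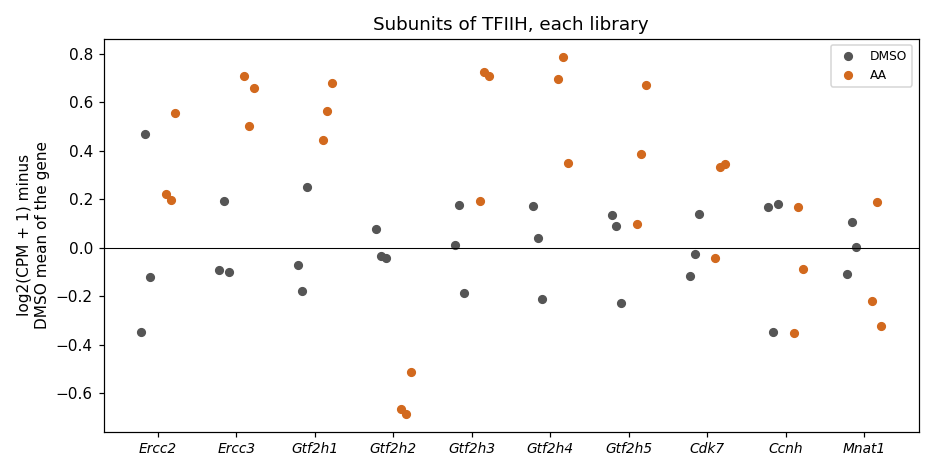
Log2(CPM + 1) of each TFIIH gene in each library minus the mean of the 3 DMSO libraries of that gene (y axis), with grey points for DMSO and orange points for AA. Gtf2h2 is the one gene whose 3 AA points lie below all DMSO points, whereas the AA points of Ercc3, Gtf2h1, Gtf2h3 and Gtf2h4 lie above all of theirs.

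Of the 6 genes of damage verification and incision, 1 rose (16.7%, all tested genes 22.3%), Ercc5. XPG, its product, cuts the damaged strand on the 3′ side of the lesion and also stabilises TFIIH. Ercc5 read 21.5, 30.1 and 26.9 CPM in DMSO and 93.1, 81.1 and 118 CPM in AA. The lowest AA library was more than 2-fold above the highest DMSO library, and the means went from 26.2 ± 4.33 to 97.6 ± 19.1 CPM (SD, n = 3 per group). The log2 fold change was 1.85 (SE 0.18, 95% interval 1.46 to 2.25, limma adjusted p = 6.78e-05). It passed in all 16 alternative settings, at log2 fold changes of 1.59 to 1.98. Ercc5 lies at chr1:44147744-44181260 on the plus strand (mm10).

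The gene of the second nuclease did not pass. Ercc4 encodes XPF, which cuts on the 5′ side, and it read 22.7, 33.9 and 31.6 CPM in DMSO and 26.5, 34.9 and 29.4 CPM in AA. The groups overlapped (log2 fold change 0.050, SE 0.19, adjusted p = 0.865), and the 95% interval allowed at most a 1.38-fold rise of CPM + 1. Ercc5 relative to Ercc4 in the same library was 0.851 to 0.947 in DMSO and 2.32 to 4.03 in AA. Ercc1, whose product forms the nuclease with XPF, had means of 4.93 ± 0.612 and 7.88 ± 2.03 CPM in DMSO and AA (log2 fold change 0.56, SE 0.25, adjusted p = 0.11). It passed in 1 of 16 alternative settings, without AA replicate 1 (0.76, adjusted p = 0.0481), and was at 0.30 with library medians equalised (0.353) and 0.23 after quantile normalization (0.473).

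Xpa encodes the scaffold that checks the opened lesion, and it read 7.78, 12.2 and 11.1 CPM in DMSO and 12.8, 8.48 and 12.1 CPM in AA. The groups overlapped (log2 fold change 0.095, SE 0.24, adjusted p = 0.792). The single-strand binding genes Rpa1 and Rpa3 had log2 fold changes of -0.18 and 0.21 and did not pass. Rpa3 was close to the filter, with 15 to 80 reads per library.

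In gap filling and ligation 1 of 5 genes rose (20%, all tested genes 22.3%). Rfc2 encodes a small subunit of the clamp loader that puts the PCNA ring on DNA, and the other loaders of the cell share it. It read 26.2, 31.5 and 34.6 CPM in DMSO and 58.5, 56.3 and 59.1 CPM in AA. The AA libraries lay within 3 CPM of each other and above all DMSO libraries (log2 fold change 0.90, SE 0.15, adjusted p = 0.00163). It passed in 15 of 16 alternative settings, all except the fit with library sets (adjusted p = 0.054). Rfc1, the large subunit of the replicative loader, read 37.1, 36.9 and 37.8 CPM in DMSO and 42.3, 34.5 and 34.5 CPM in AA, with 2 AA libraries below and 1 above the DMSO values (log2 fold change -0.014, SE 0.15, adjusted p = 0.956). The ratio of Rfc2 to Rfc1 in the same library was 0.707 to 0.915 in DMSO and 1.38 to 1.71 in AA. Pold3, a subunit of polymerase delta that also serves polymerase zeta, had a log2 fold change of -0.053, and the ligation genes Lig3 and Xrcc1 had -0.16 and -0.032. None of these 3 passed, and Lig3, whose AA values were all below its DMSO values, passed as lower in 1 of 16 alternative settings, with library medians equalised (-0.41, adjusted p = 0.0386).

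Of the 7 translesion genes, 2 rose (28.6%, all tested genes 22.3%): Polk and Rev1. Polymerase kappa inserts bases opposite some bulky adducts and extends past them, and the mouse gene is known to respond to p53. Polk read 21.5, 22.5 and 26.9 CPM in DMSO and 70.3, 66.2 and 85.1 CPM in AA. Every AA library was more than 2-fold above every DMSO library, and the means went from 23.6 ± 2.91 to 73.8 ± 9.95 CPM (SD, n = 3 per group). The log2 fold change was 1.60 (SE 0.16, 95% interval 1.25 to 1.95, limma adjusted p = 7.72e-05). It passed in all 16 alternative settings, at 1.34 to 1.70. The gene lies at chr13:96480690-96542579 on the minus strand (mm10), and the table does not separate transcripts from the first and the internal start printed above.

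Rev1 encodes a deoxycytidyl transferase that serves as the docking platform of the translesion polymerases. It read 33.5, 38.2 and 43.9 CPM in DMSO and 64.9, 58.3 and 66.0 CPM in AA, without overlap (log2 fold change 0.70, SE 0.15, adjusted p = 0.00565). It did not pass in the fit with library sets (0.51, adjusted p = 0.145) and passed in the other 15 settings. On the opposite strand Eif5b overlaps Rev1 by 2794 bases, and Lat2 overlaps Rfc2 by 1784. Neither passed (log2 fold change 0.23, limma adjusted p = 0.19 for Eif5b, and 0.78 and 0.0852 for Lat2). Cd3eap, which overlaps Ercc1 by 511 bases on the opposite strand, did rise, from 4.74 ± 0.618 to 9.25 ± 2.59 CPM (log2 fold change 0.81, limma adjusted p = 0.0288). Tkfc, Acp2, Rasa1, Ncbp1, Rffl and Draxin likewise overlap Ddb1, Ddb2, Ccnh, Xpa, Lig3 and Mad2l2, and did not pass. The strand setting of the counting is not known here, so reads of such pairs may not have been told apart.

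The other translesion genes did not pass. Polh encodes polymerase eta, which copies past UV dimers and is a p53 target in human cells, and it read 8.29, 9.44 and 7.77 CPM in DMSO and 8.72, 10.2 and 6.97 CPM in AA. The AA libraries spanned the whole DMSO range (log2 fold change 0.0075, SE 0.22, adjusted p = 0.984). The 95% interval allowed at most a 1.41-fold rise of CPM + 1, a looser bound on CPM itself. The ratio of Polk to Polh in the same library was 2.38 to 3.47 in DMSO and 6.51 to 12.2 in AA. Poli, the gene of polymerase iota, had means of 10.6 ± 2.71 and 15.3 ± 3.02 CPM (log2 fold change 0.50, SE 0.23, adjusted p = 0.125), with an interval that reached 2.02-fold for CPM + 1. Rev3l encodes the catalytic subunit of polymerase zeta, the main extender past lesions, and it read 67.4, 70.1 and 90.4 CPM in DMSO and 66.8, 72.9 and 72.5 CPM in AA. The groups overlapped (log2 fold change -0.091, SE 0.15, adjusted p = 0.669). The ratio of Rev1 to Rev3l was 0.486 to 0.544 in DMSO and 0.800 to 0.972 in AA. Mad2l2, whose product joins REV1 to polymerase zeta, had means of 9.77 ± 3.65 and 12.8 ± 1.48 CPM (adjusted p = 0.243). Rad18, the gene of the ligase that marks PCNA for translesion synthesis, was the lowest per length of the 38 genes, with means of 2.07 ± 0.0751 and 2.21 ± 0.509 CPM (log2 fold change 0.056, SE 0.25, adjusted p = 0.888).

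**Figure D3:**
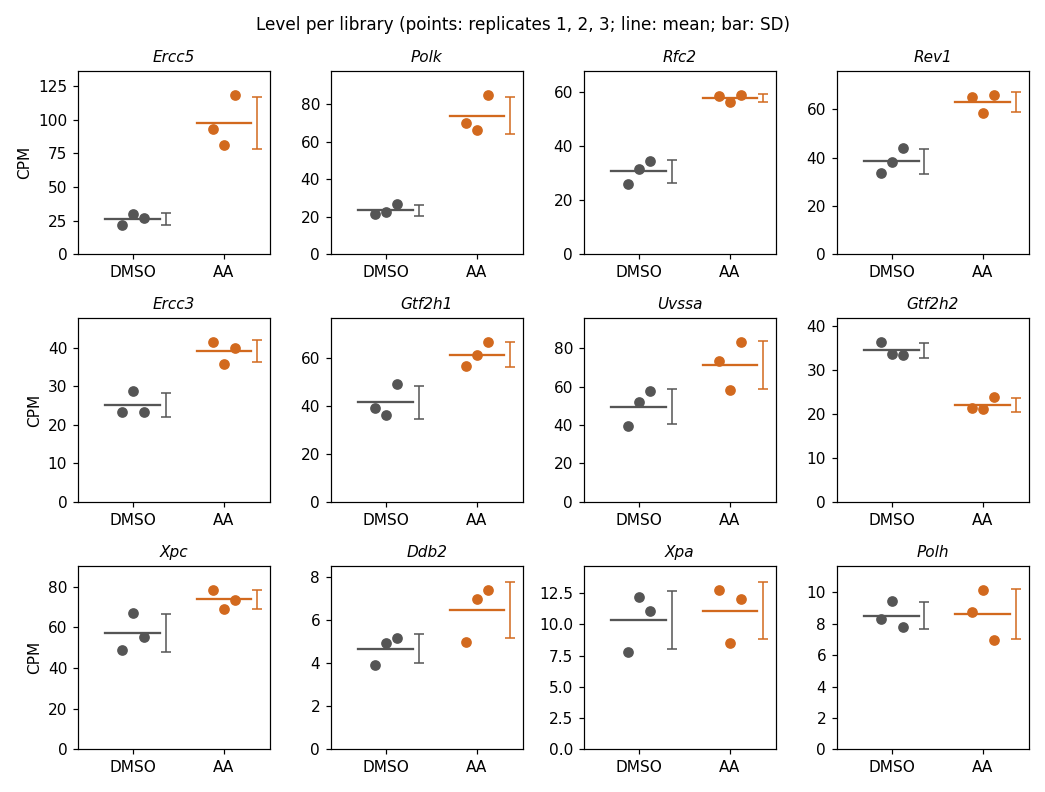
CPM in each library (y axis, starting at 0) for the 8 genes that passed and for Xpc, Ddb2, Xpa and Polh; points are replicates 1, 2 and 3 from left to right, lines are means and bars are SD. The 7 genes that rose have all AA points above all DMSO points, Gtf2h2 has them below, and Ddb2, Xpa and Polh overlap.

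**Figure D4:**
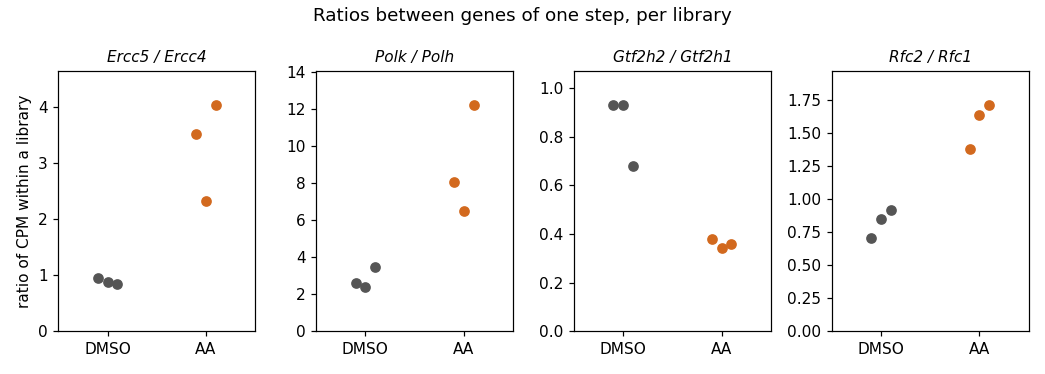
Ratio of the CPM of paired genes within each library (y axis, starting at 0), with grey points for the 3 DMSO and orange points for the 3 AA libraries. Ercc5 to Ercc4, Polk to Polh and Rfc2 to Rfc1 are higher in every AA library than in any DMSO library, and Gtf2h2 to Gtf2h1 is lower.

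For the 30 genes that did not pass, the 95% interval of CPM + 1 stayed within a 2-fold change for 27. For 3 (Gtf2h4, Ercc1 and Poli) it reached a 2-fold rise. In low genes a fold of CPM + 1 is smaller than that of CPM. These intervals therefore do not bound the CPM change of genes such as Rpa3 and Ddb2. Their log2 fold changes were 0.21 and 0.39 as reported, and 0.32 and 0.45 with a pseudocount of 0.1. At an unadjusted p under 0.05 in limma's test, 5 of the 30 would have passed. These 5 come on top of the 21.1% of the 38 that passed after adjustment. Over all tested genes the share at that looser cut was not counted, but it cannot be below the 30.9% that passed after adjustment. That share is not one to set beside 5 of 30, since the 30 exclude the genes that had passed. The genes that passed had 285 to 1650 reads per library.

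Levels of different genes were set side by side as CPM per kb of annotated exon. In DMSO tubules Ddb1, Cul4a and Rad23b, genes of the CUL4 ligase and of an XPC partner, were highest, at 48.7, 29.0 and 19.9 CPM per kb. Ercc5 ranked 23 of 38 at 4.46 CPM per kb and Polk 25 at 4.26. In AA tubules Ercc5 ranked 5 at 16.6 CPM per kb and Polk 10 at 13.3. Gtf2h2 went from rank 12 to rank 24. The level of Xpc in DMSO was 10.4 CPM per kb, that of Ercc6 2.57, that of Ddb2 1.70, that of Polh 1.43 and that of Rad18 0.357. Ranks depend on the exon lengths taken, here the union of all annotated transcripts of a gene.

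**Figure D5:**
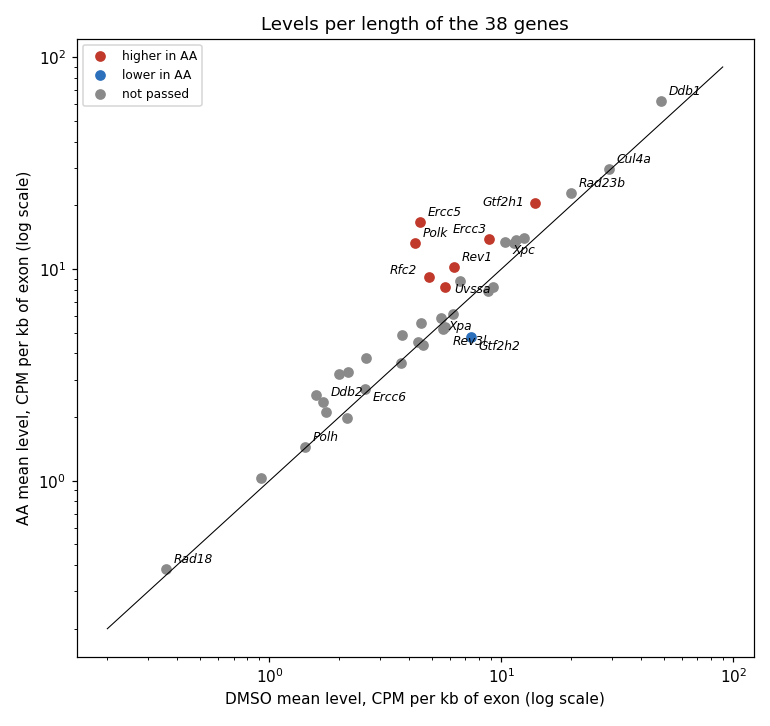
Mean level in AA (y axis) against mean level in DMSO (x axis) of the 38 genes, both in CPM per kb of exon on log scales, with the line of equal levels; colours give the outcome of the test. Ercc5 and Polk go from the middle of the range (4.46 and 4.26) to 16.6 and 13.3, while Ddb1 leads in both groups.

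Among 34 other genes of both pathways, in 2 lists by textbook role, 33 were tested: 7 rose, 2 fell and 24 did not pass (27.3% passed, beside 30.9% of all tested genes), and Poln was below the filter. Of the 22 other excision repair genes, 5 rose and 1 fell (22.7% and 4.55%, all tested genes 22.3% and 8.66%). Pcna, the sliding clamp that RFC loads and that RAD18 marks, read 23.1, 23.3 and 28.3 CPM in DMSO and 65.9, 75.4 and 76.5 CPM in AA. The groups did not overlap (log2 fold change 1.51, SE 0.15, adjusted p = 7.64e-05). Pold4, the smallest subunit of polymerase delta, rose from 6.39 ± 0.545 to 14.9 ± 0.643 CPM (log2 fold change 1.11, SE 0.20, adjusted p = 0.0023). Rfc5, another small loader subunit, rose by 0.56 on the log2 scale (adjusted p = 0.045), Xab2, an XPA-binding protein, by 0.54 (0.0257), and Hmgn1, a nucleosome-binding protein of coupled repair, by 0.60 (0.00438). Pole, the gene of the catalytic subunit of polymerase epsilon, was the one that fell, and it read 7.07, 5.97 and 6.39 CPM in DMSO and 2.63, 1.91 and 3.66 CPM in AA (log2 fold change -1.03, SE 0.26, adjusted p = 0.0121).

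Of the 12 other damage tolerance genes, 11 were tested, and 2 rose and 1 fell (18.2% and 9.09%, all tested genes 22.3% and 8.66%). Sprtn, the gene of a protease that removes proteins crosslinked to DNA, read 7.83, 12.7 and 9.90 CPM in DMSO and 22.5, 25.2 and 36.6 CPM in AA. The lowest AA library was above the highest DMSO library (log2 fold change 1.38, SE 0.24, adjusted p = 0.00187). Usp1, which removes ubiquitin from PCNA, rose by 0.65 on the log2 scale (adjusted p = 0.0349), and Zranb3, a fork remodelling translocase, fell (log2 fold change -0.78, adjusted p = 0.0431). Of the 16 alternative settings, Usp1, Zranb3 and Rfc5 each passed in only 6 and Xab2 in 8. Hmgn1 and Pole passed in 14, and Pcna, Pold4 and Sprtn in all 16. In the fit with library sets, Pcna (adjusted p = 0.00309), Pold4 (0.0233) and Sprtn (0.0247) passed. The other 6 did not, at adjusted p of 0.168 for Xab2, 0.0729 for Hmgn1, 0.202 for Rfc5, 0.109 for Pole, 0.534 for Usp1 and 0.349 for Zranb3.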

How the data were processed

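The libraries were made from messenger RNA with a TruSeq Stranded mRNA kit, per the labels' protocols. Per the submitters' processing notes, bcl2fastq 2.19 and kallisto were used with build mm10; no source states how genes were counted, the annotation or the strand setting. The authors' deposited values are log10 of CPM plus 1, in a single file: base, added 1 and CPM scale were read from the values, since undoing the logarithm gives columns that each sum to 1000000. The planned design had assumed log2 values, so CPM were recomputed and logged as log2(CPM + 1). Whole reads came back for 100% of values (tolerance 0.1 read), with depths from 13304877 to 31136251 reads. Among the symbols 27 had become dates and 2 were repeated, none of them described here.

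Testing covered the 14311 genes at 1 CPM or more in 3 or more libraries. It used limma 3.58.1 (R 4.3.3, trended variance) for AA against DMSO, 3 libraries each, two-sided, with Benjamini-Hochberg adjustment over all tested genes and calls under 0.05. The log2(CPM + 1) scale understates the change of low genes. The fit was tested on simulated data with as many genes raised as lowered, so that test does not bear on how the libraries were scaled. The members and lists were chosen with earlier results of these data known. All members are named, with full values for those that passed, for the smallest adjusted p in a role without a call, and for Xpc, Ddb2, Xpa, Ercc5, Ercc6, Polh, Polk and Rev3l. Full values of Ercc4 and Rfc1 were added after the values were seen. Other pathway genes are named where they passed. Coordinates and lengths come from GENCODE M21. The 16 alternatives were 2 scalings, 2 filters, pseudocounts of 0.1 and 5, no variance trend, voom on the recovered reads, a replicate block, a library-set term and leaving out each library.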

Additional observations from a re-analysis of the deposited data

How the results depend on the processing

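Of 606 log2 fold changes of the 38 genes under the 16 alternatives, 525 kept direction and side of the threshold, 25 lost and 6 gained a call, and 50 changed sign. The sign changes concerned 18 genes, of which 0 had passed, and 0 of the 50 values passed. With library medians equalised, higher members numbered 4 (7 as reported) and lower members 2 (1 as reported). In the fit with library sets they numbered 2 and 0, and 1481 of all tested genes passed (4426 as reported). Leaving out each library gave 5 to 8 higher members, 1 lower member each time, and 2645 (without AA replicate 2) to 3980 of all tested genes. With the replicate block 6 members rose and 1 fell, 3813 of all tested genes passed, and Uvssa did not pass (adjusted p = 0.0589). Deviations of same-numbered libraries correlated at -0.16 to -0.015 and 0 libraries lay closest to their own number. With 3 libraries per group, such values cannot exclude a batch or pairing behind the numbers.

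Equalising medians lowers every gene by 0.26, so by construction values between 0 and that shift changed sign: -0.063 for Rad23b, -0.012 for Cetn2, -0.23 for Cul4a, -0.089 for Cul4b, -0.17 for Ercc6, -0.12 for Ercc8, -0.048 for Cdk7, -0.16 for Xpa, -0.053 for Rpa3, -0.21 for Ercc4, -0.25 for Polh and -0.20 for Rad18. After quantile normalization the sign changes were -0.0020 for Cetn2, -0.0031 for Cul4a, -0.0038 for Cul4b, -0.13 for Ercc6, -0.18 for Ercc8, -0.21 for Xpa, -0.12 for Rpa3, -0.18 for Ercc4, -0.32 for Polh and -0.28 for Rad18. In the fit with library sets they were -0.072 for Cul4a, -0.18 for Ercc6, -0.060 for Ercc8, -0.017 for Xpa, -0.071 for Ercc4 and -0.13 for Mad2l2. Leaving out a library gave ranges that crossed 0 for Cul4a (-0.050 to 0.096), Ercc6 (-0.059 to 0.22), Ccnh (-0.26 to 0.041), Xpa (-0.079 to 0.26), Rpa3 (-0.080 to 0.37), Ercc4 (-0.12 to 0.16), Pold3 (-0.13 to 0.030), Rfc1 (-0.11 to 0.035), Xrcc1 (-0.19 to 0.076), Polh (-0.11 to 0.14), Rev3l (-0.17 to 0.039) and Rad18 (-0.071 to 0.13). For the other settings the cause was not tested. With a filter of 4 CPM, Rpa3 and Rad18 were not tested.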

Other observations

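Several of these genes start back to back with a neighbour on the other strand, which was looked at after the values were seen. Of the 38 genes, 13 had a tested neighbour within 2000 bases in such a head-to-head arrangement, and 4 of these neighbours fell while 0 rose (all tested genes: 8.66% fell and 22.3% rose). With library medians equalised, 16.9% of all tested genes fell and 11.2% rose. The neighbours were counted only in the main fit, and no share was taken over head-to-head pairs of other genes. Col4a3bp, a ceramide transfer gene that lies 38 bases from Polk, fell from 113 ± 10.5 to 85.0 ± 7.90 CPM (SD, n = 3 per group, log2 fold change -0.41, limma adjusted p = 0.0427), whereas Polk rose. Hps5, a gene of lysosome-related organelles 38 bases from Gtf2h1, fell from 156 ± 14.9 to 103 ± 9.28 CPM (log2 fold change -0.59, limma adjusted p = 0.00774), whereas Gtf2h1 rose. Nsdhl, a cholesterol synthesis gene beside Cetn2, fell (log2 fold change -0.85, limma adjusted p = 0.00381), and Umad1 beside Rpa3 fell (log2 fold change -0.68, limma adjusted p = 0.0203), while Cetn2 and Rpa3 did not pass.

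Genomic length ranged from 3.24 kb (Rpa3) to 150 kb (Mnat1) over the 38 genes. Spearman's rho of log2 fold change with length was -0.38 and Pearson's r with log10 length was -0.16 across these 38 genes, which share the same 6 libraries and are not independent replicates. Across all tested genes with an annotated length rho was -0.28. Among the genes that rose, Ercc5 (33.5 kb), Polk (61.9 kb), Rev1 (77.0 kb) and Uvssa (41.2 kb) were longer than the median of the 38 genes (31.8 kb). Ercc3 (29.9 kb), Gtf2h1 (27.7 kb) and Rfc2 (20.4 kb) were shorter. Gtf2h2, which fell, spans 32.4 kb. A part of length in these changes was not tested.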
